A study of Homo sapiens with 2 samples.

Results

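Kinesins are motor proteins that walk along microtubules or dismantle their ends. The genes studied here were those probed by a single-gene probe set, a group of short oligonucleotides assigned to 1 gene symbol, whose symbol starts with KIF and a digit or with KIFC. This rule named 91 of the 54613 probe sets, for 45 of the 19775 genes named by single-gene probe sets. Of these 45 names, 4 are antisense transcripts with 6 probe sets, which leaves 41 kinesin genes with 85 probe sets. PC-3 cells, an established androgen-independent line of human prostate cancer, were treated for 24 h with 10 µmol/L riccardin D (RD), a macrocyclic bisbibenzyl of liverworts, or left as controls. Total RNA of each culture was read on 1 HG-U133 Plus 2.0 array (Affymetrix). For the control, DMSO is assumed because the treatment protocol names that vehicle, although the source name calls it untreated, and the dose comes from the study and not from the labels.

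Humans have kinesins for very different tasks. Mitotic kinesins build the bipolar spindle, attach and align chromosomes and split the cell in cytokinesis, and in dividing cells their messages are made mainly in G2 and mitosis. Transport kinesins carry vesicles, mitochondria, endosomes and ciliary cargo along microtubules in cells at every stage. Promoters of many G2 and mitosis genes hold CCAAT boxes, which the factor NF-Y binds, and a cell cycle genes homology region (CHR), whose usual letters are TTTGAA or the variant with TTCGAA.

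A change of 2-fold or more between the arrays counted as lower or higher in RD-treated cells, provided that 1 of both signals was at least 66.9, the median over all signals and here called the floor. Genes with several probe sets are given by their brightest one. A single array per condition allows neither a p-value nor an estimate of how cultures vary, so each difference describes these 2 arrays. Disagreement among probe sets for 1 gene was the one measurable error, and its SD on the log2 scale was 0.76 over 6518 genes at the floor and 0.34 over 3382 genes at or above 377.4, the 75th percentile of signals. The trimmed mean signal was 495.2 on the RD array and 495.4 on the control array. The simple-epithelium keratin KRT18 had a signal of 15417 on the RD array and 10224 on the control array. Another keratin of simple epithelium, KRT8, had 159.3 on the RD array and 113.8 on the control array, while the epithelial markers KRT19, EPCAM and CDH1 were under the floor on both. Of 4 leukocyte markers, 1 was at the floor on the RD array and 2 on the control array. Their summed signals were 161.3 on the RD array and 235.6 on the control array. The defining leukocyte marker PTPRC was under the floor on both. Of 6 fibroblast markers, 2 were at the floor on each array. The brightest, COL1A1, had 325.8 on the RD array and 370.6 on the control array. Endothelial, neuron and prostate luminal markers each had 1 or 2 at the floor per array.

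Of the 41 kinesin genes, 30 reached the floor, and 11 of them were lower and 1 was higher in RD-treated cells. Over all 12818 genes at the floor, 13.3% were lower and 12.1% were higher by the same rule. The median log2 difference, RD minus control, was -0.46 over the 30 kinesin genes and -0.0022 over all genes. The 2 main classes separated almost completely. They were set with earlier results of these data known, and KIF2A (0.26), which also works at spindle poles, was placed among the other kinesins. Of 12 mitotic kinesins at the floor, all had a smaller signal after RD and 9 were lower by at least 2-fold, while of 13 transport kinesins 1 was lower, none was higher and 9 had a larger signal. Over all genes at the floor, 50.1% had a smaller and 49.9% a larger signal after RD. The median log2 difference was -1.58 for mitotic and 0.12 for transport kinesins, a gap of -1.70 that equals 3.25-fold. The mitotic member with the smallest difference, KIF14 at -0.85, lay below every transport kinesin except KIF3C at -1.06. In 153 of 156 pairings of a mitotic with a transport kinesin, the mitotic one had the lower difference. Genes are not replicates, so this contrast has no p-value. In a bulk sample, fewer cycling cells and less message per cell cannot be told apart.

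**Figure D1:**
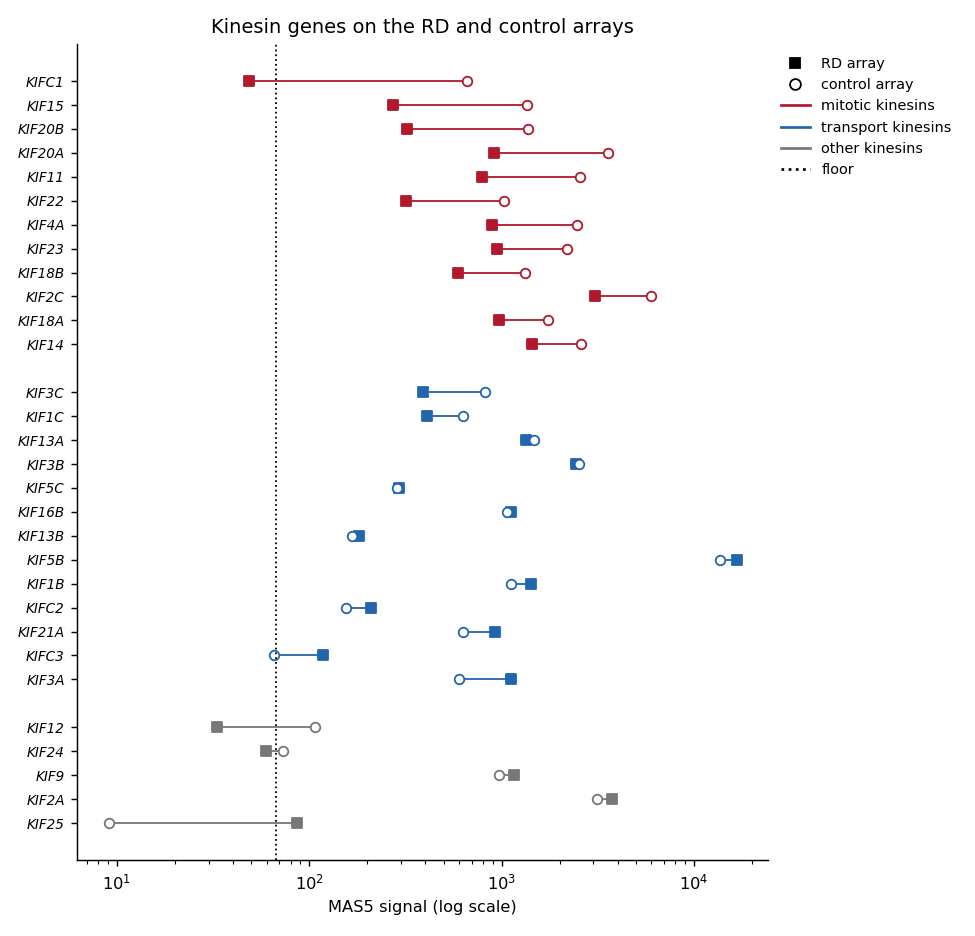
MAS5 signal (horizontal, log scale) of each of the 30 kinesin genes at the floor on the RD array (filled squares) and the control array (open circles), by class and ordered by log2 difference. All 12 mitotic kinesins have the square to the left of the circle, while 9 of 13 transport kinesins have it to the right; the dotted line is the floor of 66.9.

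The minus-end-directed motor KIFC1, which crosslinks spindle microtubules and gathers surplus centrosomes in cancer cells, had the largest fall of the mitotic class. Its signal was 48.4 on the RD array and 661.7 on the control array. Because the RD signal lay under the floor, KIFC1 was at least 9.89-fold lower, and no exact fold is given. Its single probe set carries a suffix that marks sequence shared between transcripts. The only probe set of KIF18A, every probe set of KIF20B and KIF22 and the brightest one of KIF23 carry such a suffix too.

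The plus-end motors that push the spindle poles apart were both lower. KIF11 (Eg5), the tetrameric motor that sets up the bipolar spindle, had a signal of 788.4 on the RD array and 2555 on the control array, a log2 difference of -1.70 (3.24-fold lower). KIF15, which can hold the spindle open beside KIF11, had 271.2 on the RD array and 1351 on the control array, a log2 difference of -2.32 (4.98-fold lower). Each of these genes had 1 probe set, so neither value has a second reading.

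Both chromokinesins, the motors that sit on chromosome arms, were lower to a similar extent. KIF22 (Kid), which pushes chromosomes away from the poles, had 317.6 on the RD array and 1029 on the control array (3.24-fold lower), and its other probe set gave 261.6 on the RD array and 810.1 on the control array (3.10-fold lower). KIF4A, which also sets the length of the central spindle, had 892.4 on the RD array and 2462 on the control array (2.76-fold lower). KIF4B, an intronless copy close to KIF4A in sequence, had no probe set named for it, so part of the KIF4A signal could come from KIF4B.

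Motors of the central spindle and of cytokinesis spanned a wider range. KIF20B (MPP1), which acts late in cytokinesis, had 320.4 on the RD array and 1364 on the control array (4.26-fold lower). A second KIF20B probe set read the other way, 76.4 on the RD array and 17.9 on the control array, which is at least 1.14-fold higher, and its remaining one was under the floor. KIF20A (MKLP2), which moves the chromosomal passenger complex to the central spindle, had 913.5 on the RD array and 3549 on the control array (3.88-fold lower). KIF23 (MKLP1), the motor subunit of centralspindlin, had 944.1 on the RD array and 2191 on the control array (2.32-fold lower), and 90.7 on the RD array and 247.1 on the control array by its other probe set (2.72-fold lower). KIF14, which brings citron kinase to the midbody, had 1433 on the RD array and 2575 on the control array and did not reach 2-fold by either of its probe sets, at 0.557 and 0.510 of control.

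The kinesins that control microtubule ends in mitosis lay nearer to control than most of the class, with 1 of 3 lower by the 2-fold rule. KIF18B, which acts on astral microtubule ends, had 590.1 on the RD array and 1321 on the control array (2.24-fold lower). KIF2C (MCAK), the centromeric depolymerase that corrects wrong attachments, had 3053 on the RD array and 5990 on the control array, just short of the rule at 0.510 of control, and its other probe set stood at 0.514. KIF18A, which damps chromosome oscillation at the metaphase plate, had 967.2 on the RD array and 1746 on the control array (0.554 of control). KIF2B, another spindle depolymerase, was under the floor on both arrays, with a signal of 1.8 on the RD array and 3.5 on the control array. Medians of the roles were -2.01 for the 2 bipolar spindle motors, -1.59 for the 4 central spindle and cytokinesis motors, -1.58 for the 2 chromokinesins and -0.97 for the 3 end regulators at the floor. KIFC1, alone in its role, is left out of these medians. They are listed by value only, because roles of so few members, each read on 1 array per condition, cannot be ranked. KIF14, a cytokinesis motor, was level with the end regulator KIF18A, at -0.846 by its brightest probe set against -0.852. Its other probe set, at -0.971, lay further from control than KIF18A.

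The transport kinesins had no common direction. Among the kinesin-1 heavy chains, which carry mitochondria and vesicles, KIF5B had a signal of 16606 on the RD array and 13587 on the control array (1.22 of control), and its other probe sets stood at 1.36 and 1.48 of control. KIF5C stayed level with 291.9 on the RD array and 286.1 on the control array, and the neuronal KIF5A was under the floor.

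In the kinesin-2 group, whose KIF3A and KIF3B subunits with the adaptor KIFAP3 drive transport into cilia, the partners differed. KIF3A had 1113 on the RD array and 598.8 on the control array (1.86 of control) by its brightest probe set, and 1125 on the RD array and 512.5 on the control array (2.19-fold higher) by the other. KIF3B had 2421 on the RD array and 2519 on the control array, at 0.961 of control. KIF3C, an alternative partner of KIF3A, had 390.8 on the RD array and 815.3 on the control array (2.09-fold lower), but only 0.727 of control by its other probe set. KIF17, the homodimeric member, was under the floor.

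The kinesin-3 motors, which carry vesicles and endosomes, stayed within 2-fold by their brightest probe sets. KIF1B, a carrier of mitochondria and synaptic vesicle precursors, had 1427 on the RD array and 1121 on the control array (1.27 of control), and 2 further probe sets of similar brightness were at 0.987 and 0.930 of control. A dim KIF1B probe set read 6.7 on the RD array and 68.1 on the control array, at least 1.02-fold lower. KIF16B, a carrier of early endosomes, had 1120 on the RD array and 1064 on the control array, and KIF13B had 181.4 on the RD array and 166.9 on the control array. KIF13A had 1336 on the RD array and 1475 on the control array. KIF1C had 407.8 on the RD array and 630.0 on the control array (0.647 of control), while a second probe set read 107.6 on the RD array and 350.3 on the control array (3.26-fold lower). KIF1A, a mainly neuronal motor, was under the floor.

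Of the remaining transport kinesins, KIF21A, which acts at cortical microtubules, had 926.0 on the RD array and 633.0 on the control array (1.46 of control). The minus-end motor KIFC3 had 118.4 on the RD array and 65.4 on the control array, a ratio of at least 1.77. KIFC2 had 208.4 on the RD array and 156.0 on the control array (1.34 of control), but its other probe set was at 0.856 of control. KIF21B was under the floor.

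Among the 11 other kinesins, 5 reached the floor. KIF2A, a depolymerase that works both at spindle poles and in non-dividing cells, had 3755 on the RD array and 3132 on the control array (1.20 of control), unlike its mitotic relative KIF2C. That probe set has a shared-sequence suffix, and the other KIF2A probe set, without one, stood at 0.923 of control. KIF9, a motor known from cilia, had 1163 on the RD array and 970.5 on the control array (1.20 of control), by a probe set whose suffix marks shared sequence. KIF24, which restrains cilium formation at the centriole, had 59.5 on the RD array and 72.9 on the control array. The members counted as lower and higher rested on dim signals. KIF12 had 33.0 on the RD array and 106.9 on the control array, at least 1.60-fold lower, and KIF25 had 86.0 on the RD array and 9.1 on the control array, at least 1.29-fold higher, so neither bound reaches 2-fold. KIF6, KIF7, KIF19, KIF26A, KIF26B and KIF27 were under the floor by their brightest probe sets. Of the 4 antisense names, KIF9-AS1 alone reached the floor, with 129.9 on the RD array and 118.1 on the control array.

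Counted by probe set rather than by gene, of 17 mitotic kinesin probe sets at the floor, 11 were lower and 1 was higher, and of 30 for transport kinesins 4 were lower and 3 were higher. Over all 24934 single-gene probe sets at the floor, 13.2% were lower and 13.4% were higher. Of 17 kinesin genes with at least 2 probe sets at the floor, 7 had a smaller signal after RD by every such probe set, whatever the size. Another 5 had a larger one by every probe set and 5 were mixed, KIF20B among them. The 7 were the mitotic kinesins KIF2C, KIF14, KIF22 and KIF23 and the transport kinesins KIF1C, KIF3B and KIF3C. Apart from KIF20B, the other mitotic kinesins at the floor rested on 1 probe set each. Over all 6518 genes with at least 2 probe sets at the floor, 30.1% had a smaller and 32.5% a larger signal by every probe set. The SD between probe sets of a kinesin gene was 1.02 at the floor, and 0.16 over the 9 genes with at least 2 probe sets at or above 377.4. The scatter therefore lay mainly in dim probe sets, such as those of KIF13A, whose 6 probe sets at the floor ran between -1.03 and 2.37. All 12 mitotic kinesins had a signal at or above 377.4 on at least 1 array. KIFC1, KIF15, KIF20B and KIF22 reached it on the control array only, with RD signals of 48.4, 271.2, 320.4 and 317.6. Among the 8094 genes that bright on at least 1 array, 10.9% were lower and 9.91% were higher.

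**Figure D2:**
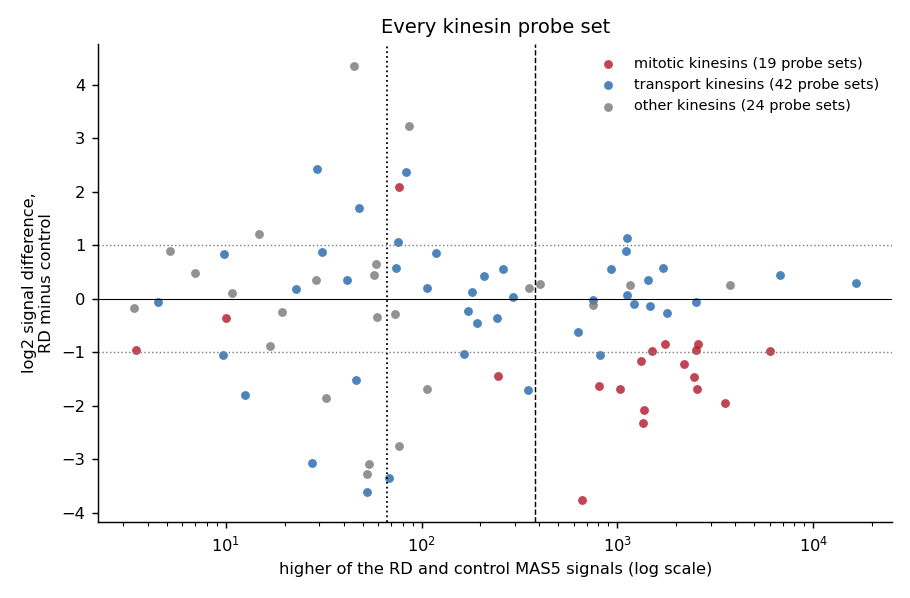
Log2 signal difference, RD minus control (vertical), of all 85 kinesin probe sets against the higher of their RD and control signals (horizontal, log scale), by class. The vertical dotted line is the floor of 66.9, the dashed line is the 75th percentile of 377.4 and horizontal dotted lines mark 2-fold; to the right of the dashed line the mitotic probe sets lie below 0 and most transport probe sets lie near it.

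Of 23 genes that work with the mitotic kinesins and reached the floor, 16 were lower, none was higher and 7 did not reach 2-fold, with a median log2 difference of -1.20. Over all genes at the floor, 13.3% were lower. AURKB, the kinase of the chromosomal passenger complex that KIF20A transports, had a signal of 305.4 on the RD array and 2234 on the control array (7.32-fold lower). NUSAP1, which bundles spindle microtubules, had 1798 on the RD array and 8591 on the control array (4.78-fold lower). PRC1, the partner of KIF4A on the central spindle, was 2.60-fold lower, RACGAP1, the partner of KIF23 in centralspindlin, was 2.31-fold lower, and the kinetochore kinesin CENPE, which the naming rule leaves out, was 2.25-fold lower. NUMA1, which anchors dynein at spindle poles, stood at 1.21 of control, and CLASP1 and CLASP2, which stabilise microtubule ends in interphase and mitosis, were at 1.06 and 1.02 of control. All 10 proliferation genes had lower signals and 9 were lower by at least 2-fold, with a median of -2.17. TOP2A had 611.5 on the RD array and 8185 on the control array, CDK1 was 10.2-fold lower, BUB1 was 2.41-fold lower and CCNB1 stood at 0.521 of control. The share of cycling cells was not measured on these arrays, and whether it had a part in the mitotic kinesin values was not tested.

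Of 15 kinesin light chains and cargo adaptors at the floor, 3 were higher and none was lower, with a median of -0.01, where 12.1% of all genes were higher and 13.3% lower. KLC3, a kinesin light chain, had 159.5 on the RD array and 35.4 on the control array (at least 2.38-fold higher). SPAG9 (JIP4), an adaptor for kinesin-1 and dynein, had 10028 on the RD array and 3901 on the control array (2.57-fold higher), and PLEKHM2, which links lysosomes to kinesin-1, was 2.05-fold higher. TRAK1, which ties mitochondria to kinesin-1, was at 0.519 of control and the mitochondrial adaptor RHOT2 at 0.695. KIFAP3 stood at 0.889 of control.

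Of 23 genes of cytoplasmic dynein, the retrograde motor, and of dynactin at the floor, 3 were higher and 1 was lower, with a median of 0.06. The count of higher genes was near the background of 12.1% over all genes. NDEL1, a dynein regulator, had 5039 on the RD array and 1449 on the control array (3.48-fold higher), and the dynein heavy chain DYNC1H1 had 8189 on the RD array and 2582 on the control array (3.17-fold higher). DYNLL2, a dynein light chain, was 2.18-fold higher. By the median over the probe sets of each gene, only 1 of the 23 was higher, so calls in this list depended on the probe set. The dynactin subunit DCTN3 had 3250 on the RD array and 8084 on the control array (2.49-fold lower), while CAPZB, a capping protein subunit also found in dynactin, was at 0.536 of control. Of 18 intraflagellar transport genes, the cargo complexes that kinesin-2 moves in cilia, 14 had a larger signal, against 49.9% of all genes, with a median of 0.41, and 2 were higher by at least 2-fold, a count near the background of 12.1%. IFT20 had 3540 on the RD array and 1327 on the control array (2.67-fold higher), WDR19 was 2.16-fold higher, and IFT140 and WDR35 were at 0.517 and 0.567 of control.

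**Figure D3:**
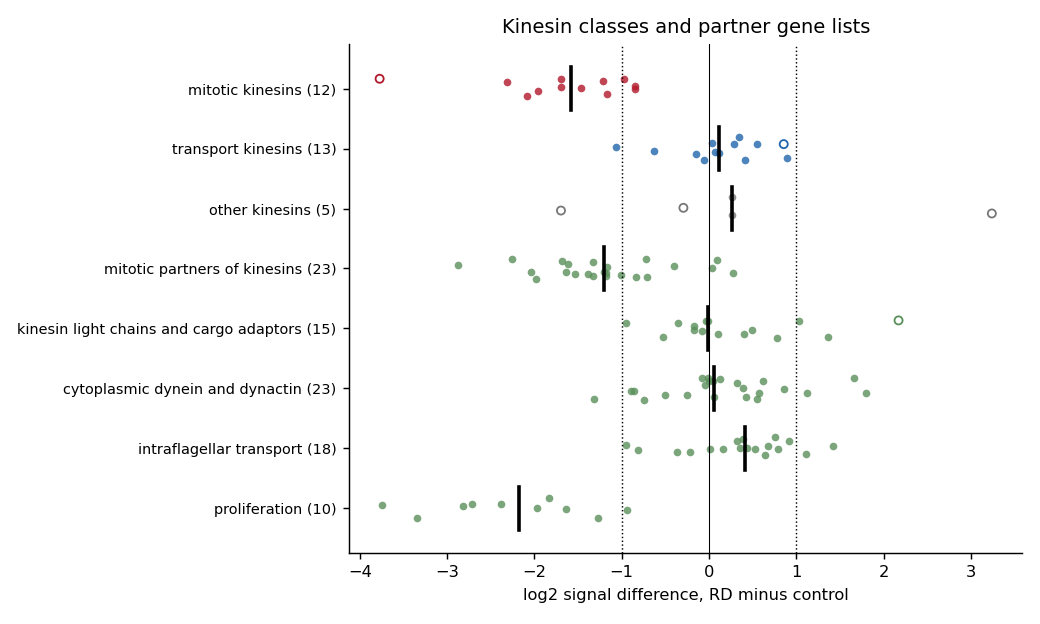
Log2 signal difference, RD minus control (horizontal), of each gene at the floor in the kinesin classes and partner lists, with the number of genes in brackets. Black bars show medians and dotted lines 2-fold; open circles are genes with 1 of both signals under the floor. The medians are -1.58 for mitotic and 0.12 for transport kinesins.

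Promoter letters, which played no part in choosing the classes, also differed between them. RefSeq windows of 300 bases (GRCh38.p14), with 250 bases before and 50 after a gene's start, were found for 33 of the 41 kinesin genes, and for KIF4B. They were searched on both strands for CCAAT, for TTTGAA and for TTCGAA, which reads the same on both strands. One of the CHR forms was in 12 of 15 windows of mitotic kinesins (80.0%), in 1 of 17 windows of transport kinesins (5.88%), in 1 of 11 windows of other kinesins (9.09%) and in 16.4% of all 35116 windows. CCAAT was in 11 mitotic windows (73.3%), 5 transport windows (29.4%), 4 other windows (36.4%) and 34.6% of all windows. Both together were in 10 mitotic windows (66.7%), 1 transport window (5.88%) and 6.38% of all windows. The windows of KIF22 overlap and hold the same CHR match, so that by gene the CHR forms were in 11 of 14 mitotic, 1 of 12 transport and 1 of 8 other kinesins, and in 19.5% of all 27305 genes. By gene, CCAAT was in 11 of 14 mitotic kinesins, 4 of 12 transport kinesins and 39.7% of all genes. The genes with windows are not those of the signal contrast. KIF4B and KIF2B in the mitotic class and KIF1A and KIF17 in the transport class had no value at the floor. The transport kinesins KIF13B, KIFC2 and KIFC3 had values but no window. A match is a description of letters and not a measured binding site.

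The stretches below run over the 150 bases before the start and show 6 mitotic kinesins, chosen to cover large and small differences and windows with and without a CHR form, and 2 transport kinesins for contrast. Capitals mark the searched letters on either strand, so that ATTGG is CCAAT and TTCAAA is TTTGAA read on the other strand.
KIFC1, chr6:33391673-33391822, plus strand: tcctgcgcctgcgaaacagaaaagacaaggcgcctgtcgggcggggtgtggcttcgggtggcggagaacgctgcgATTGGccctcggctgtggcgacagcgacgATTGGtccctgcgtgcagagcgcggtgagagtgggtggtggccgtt
KIF15, chr3:44761644-44761793, plus strand: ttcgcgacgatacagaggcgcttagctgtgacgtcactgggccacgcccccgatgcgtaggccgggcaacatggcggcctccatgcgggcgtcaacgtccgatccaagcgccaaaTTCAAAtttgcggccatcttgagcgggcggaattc
KIF20A, chr5:138178962-138179111, plus strand: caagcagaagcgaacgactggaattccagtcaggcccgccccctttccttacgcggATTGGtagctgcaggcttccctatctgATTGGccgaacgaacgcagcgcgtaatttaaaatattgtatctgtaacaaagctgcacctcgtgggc
KIF11, chr10:92592980-92593129, plus strand: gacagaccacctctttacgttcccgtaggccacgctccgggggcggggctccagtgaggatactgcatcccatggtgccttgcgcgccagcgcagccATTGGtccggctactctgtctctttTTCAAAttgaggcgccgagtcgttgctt
KIF4A, chrX:70289954-70290103, plus strand: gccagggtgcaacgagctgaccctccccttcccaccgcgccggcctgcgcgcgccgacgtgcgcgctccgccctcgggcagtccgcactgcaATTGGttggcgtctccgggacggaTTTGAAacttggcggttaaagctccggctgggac
KIF18A, chr11:28108157-28108306, minus strand: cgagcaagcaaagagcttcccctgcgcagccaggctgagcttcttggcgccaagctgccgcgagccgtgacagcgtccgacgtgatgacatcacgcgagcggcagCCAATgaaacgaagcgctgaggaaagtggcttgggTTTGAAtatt
KIF3A, chr5:132737547-132737696, minus strand: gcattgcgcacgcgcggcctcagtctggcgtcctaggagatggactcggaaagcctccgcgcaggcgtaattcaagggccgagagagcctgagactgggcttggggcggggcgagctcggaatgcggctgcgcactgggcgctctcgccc
KIF5B, chr10:32056426-32056575, minus strand: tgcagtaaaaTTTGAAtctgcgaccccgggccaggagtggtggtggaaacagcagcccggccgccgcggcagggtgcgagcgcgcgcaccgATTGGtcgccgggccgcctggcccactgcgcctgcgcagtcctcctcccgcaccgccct

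KIF11, KIF4A and KIF18A held a CCAAT followed by a CHR form within these stretches. In KIF11, for example, the CCAAT match began 53 bases and the CHR match 28 bases before the start. KIF15 held a CHR form and no CCAAT. KIFC1 held a pair of CCAAT matches here, and its CHR form began 5 bases after the start, outside the printed stretch. KIF20A, which was 3.88-fold lower, held a pair of CCAAT matches and neither CHR form in its window, and KIF2C held none of the searched letters. The CHR match of KIF5B, the exception among transport kinesins, began 140 bases before the start and before its CCAAT, whereas KIF3A held no match. KIF24, whose signals lay near the floor, was the member of the other kinesins with a CHR form.

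**Figure D4:**
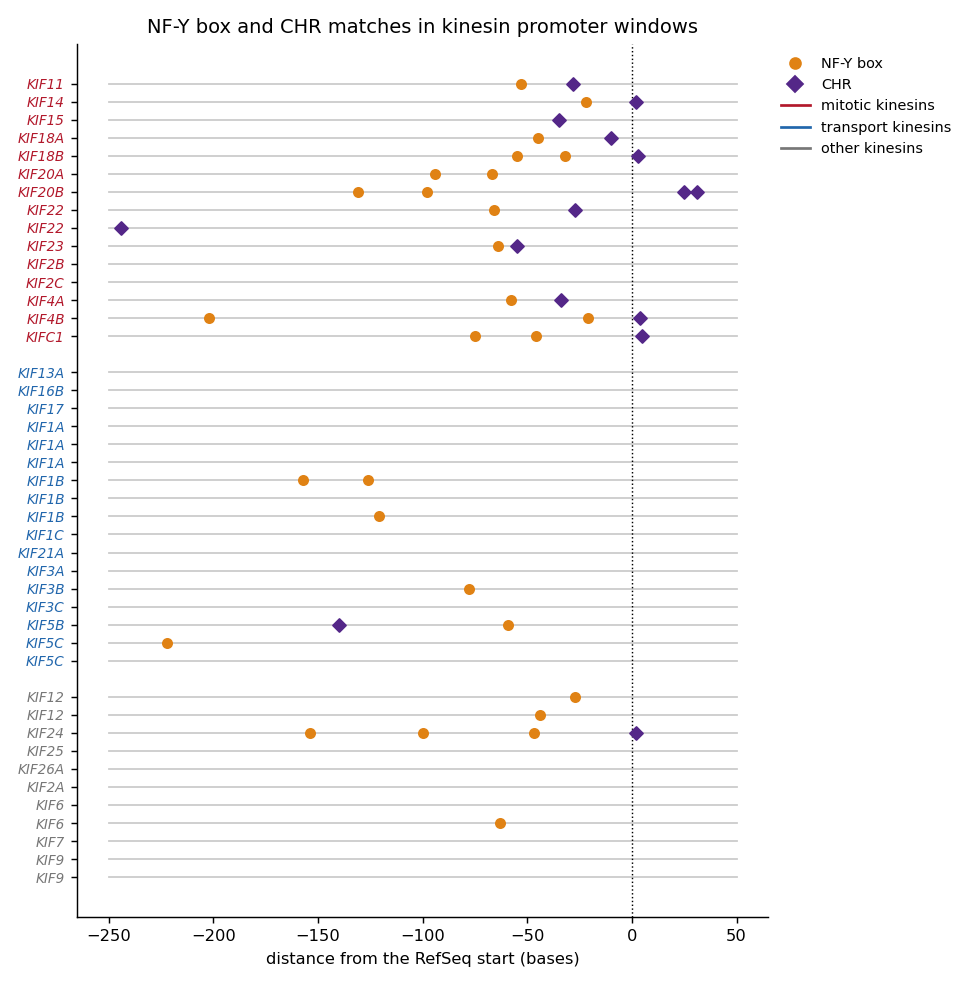
First base of each match in kinesin promoter windows, as the distance from the RefSeq start in bases (horizontal), with a row for each window and gene names coloured by class. Circles (NF-Y box) are CCAAT and diamonds (CHR) are TTTGAA or TTCGAA on either strand; diamonds stand in 12 of 15 mitotic windows and in 1 of 17 transport windows.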

How the data were processed

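The authors deposited MAS5 signals, intensities on a linear scale, for 1 array of RD-treated and 1 array of control PC-3 cells. Neither a MAS5 version nor a scaling target is stated in the sources used. MAS5 subtracts mismatch probes, so ratios of dim signals are noisy. Log2 differences, RD minus control, were computed from the deposited signals with no offset and no further scaling. Probe sets with several genes were not used, all 45 member symbols matched RefSeq (GRCh38.p14) unchanged, and brightness was judged on the mean log2 signal of both arrays. Where the lower signal was under the floor, the fold is a bound against the floor. The number of arrays limits the precision, and treatment cannot be told apart from other differences between the cultures.

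The members, the kinesin classes and the gene lists were chosen with earlier results of these data known. Every kinesin gene at the floor was named, and the lowest 2 and highest 2 genes of each partner list. CLASP2, CENPE, PRC1, RACGAP1, PLEKHM2, KIFAP3 and DYNLL2 are named beyond this rule, after their values were seen. The alternatives were centring, quantile normalization, an offset of 17.1, no floor, a floor of 377.4, signals raised to the floor, the median over probe sets, probe sets without shared-sequence suffixes, thresholds of 1.5-fold and 3-fold, and KIF2A and KIF24 counted as mitotic. The calling steps were tested on simulated data. Scripts ran in Python 3.11.15 with pandas 2.3.3 and numpy 2.4.6, and figures were drawn with matplotlib 3.10.9.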

Additional observations from a re-analysis of the deposited data

How the results depend on the processing

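The class contrast kept its direction under every alternative that gave a value. The gap between the mitotic and transport medians ranged between -1.75 and -1.46 and was -1.46 with KIF2A and KIF24 counted as mitotic, which put the mitotic median at -1.34. The near-complete separation of the classes was lost in that setting, because KIF2A at 0.26 lay above the transport median of 0.12. It was weaker in other settings too. By the median over probe sets, KIF20B at 0.0018 lay above the transport kinesins KIF1C (-1.17), KIF3C (-0.76), KIF3B (-0.16) and KIF1B (-0.06). With no floor, the transport kinesin KIF1A at -3.07 lay below every mitotic kinesin except KIFC1. The transport median stayed between 0.05 and 0.29. No paired analysis was possible because each condition had 1 array, and for the same reason no array could be left out. The cause of the changes below was not tested beyond what each alternative itself sets.

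KIF20B, alone of the kinesins counted as lower or higher, changed direction, to 0.0018 by the median over its probe sets. At 3-fold, 7 of 30 kinesins were lower, none of them a transport kinesin, and 7 of 23 mitotic partners were lower. With only probe sets without shared-sequence suffixes fewer genes were measured. Then 7 of 23 kinesins were lower, against 11 of 30 in the main setting, and 6 of 8 mitotic kinesins, against 9 of 12. Of mitotic partners 10 of 16 were lower, against 16 of 23, and of transport kinesins 0 of 12, against 1 of 13. Kinesins counted as higher numbered 4 of 41 with no floor, 2 of 31 by the median over probe sets and 3 of 30 at 1.5-fold. They numbered 0 of 23 with the floor at the 75th percentile, 0 of 30 with signals raised to the floor and 0 of 23 without the suffixes. The median over all kinesins was -0.14 with no floor, -0.85 with the floor at the 75th percentile and -0.29 by the median over probe sets. Transport kinesins counted as lower were 2 of 17 with no floor, 2 of 13 at 1.5-fold and 0 of 13 at 3-fold. Those counted as higher were 2 of 17 with no floor, 2 of 13 at 1.5-fold and 1 of 13 by the median over probe sets. Other kinesins had 2 of 11 lower with no floor, 2 of 6 lower by the median over probe sets and 2 of 11 higher with no floor. With the floor at the 75th percentile 0 of 2 were lower or higher, with signals raised to the floor 0 of 5 were, and without the suffixes 0 of 3 were higher. Their medians were -0.11 by the median over probe sets and -0.29 without the suffixes. Among light chains and adaptors 1 was lower at 1.5-fold and 1 higher at 3-fold. Of dynein and dynactin genes 2 of 25 were lower with no floor, 4 of 23 at 1.5-fold and 0 of 23 at 3-fold. By the median over probe sets 1 of 23 was higher, and at 1.5-fold 5 of 23 were. Of intraflagellar transport genes 1 of 18 was lower after quantile normalization and 2 of 18 at 1.5-fold. Without the suffixes 1 of 11 was higher, at 1.5-fold 7 of 18 were and at 3-fold 0 of 18.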
